A study of Mus musculus with 24 samples.

Results

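Genes of adipocytes, of their secreted adipokines and of fatty acid synthesis were examined in mouse mammary tumors. The members were chosen by name, 40 genes in all, and each had at least 1 probe on the array. They were measured by 61 of the 39429 probes, and 39 of them entered the tests among 20962 genes. The remaining member, Lep, did not pass the signal filter and is described on its own below.

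Each of the 24 arrays held RNA from 1 tumor of a female BALB/c mouse given the carcinogen DMBA, beside a common reference RNA pooled from mouse cell lines. The diets were a low-fat diet (LFD) and one rich in saturated fat of animal origin (HFD), fed throughout, or exchanged once in adulthood so that HFD-LFD mice ate HFD around puberty and LFD later, and LFD-HFD mice the reverse. The labels also call each tumor early or late by when it arose. They give 5 late LFD, 6 late HFD, 4 late LFD-HFD, 3 late HFD-LFD, 3 early HFD and 3 early HFD-LFD tumors. There were no early tumors from LFD or LFD-HFD mice, so onset and pubertal diet are partly tied together in these 24 tumors. The tissue is whole tumor, and in such bulk RNA fewer cells of a type and less RNA per cell cannot be told apart. Tumors are named below as their labels name them, and each comparison was a limma fit with Benjamini-Hochberg adjustment over the 20962 genes, called at an adjusted p under 0.05.

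All values are log2 ratios of tumor to reference, so that 0 means the level of the reference and a difference of 1 means a doubling. The tumor was taken to be the cyanine 5 channel, as in the labels, whereas the methods text places the reference there. In the arrays cyanine 5 was the more variable dye, with a median SD between arrays of 0.44 log2 units over 13633 probes against 0.22 for cyanine 3, and the reference was the same RNA on every array. Arrays were spread over 7 slides and 3 scan sessions. The first session held 3 early and 8 late tumors, the second 3 and 3, and the third 7 late tumors only. On slides 6 and 7, which held the 7 arrays of the third session, 20.6% to 28.6% of spots lay in rows with a dimmed tumor channel and were set missing, so some members have fewer than 24 values. The share of probes whose tumor signal stood well over background was 66.1% to 89.2% per array.

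White fat cells surround the mammary epithelium, store triglyceride in droplets coated by perilipins, and release fatty acids when lipases act on those droplets. They secrete adipokines such as adiponectin and leptin, and the nuclear receptor PPARγ drives their formation. Fatty acid synthesis from acetyl-CoA also runs in fat cells, but milk-secreting mammary epithelium and the sebaceous glands of skin use the same enzymes, so these genes do not mark one cell type. The adipocyte markers were present but low against the reference. The medians over the tumors were -2.87 for Adipoq (adiponectin), -3.55 for Plin1 (perilipin 1, the droplet coat of fat cells) and -2.53 for Fabp4 (the fatty acid carrier of fat cells). Members differed widely between tumors. The median SD over the tumors was 0.93 log2 units for the 39 members and 0.38 for all genes tested, and all 39 members lay above that all-gene median.

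The probes of most members called in any comparison are shown by their first 30 of 60 bases, because the call of each gene rests on that stretch of transcript. The letters come from the array files, and the positions of the whole 60 bases are on mm9. No annotation of that build was used here, so the exon or UTR under each probe is not given. Cidea and Dgat2 are named without their probes. The spelling was equal on all 24 arrays. Lepr is shown by 3 probes, whose values differed as described below.
Mgll, chr6:88778292-88778351, plus strand: aattactaaagaagccaatgtgcactacag
Gpd1, chr15:99555334-99555393, plus strand: acagattccaacaccttaacctatgtttgc
Me1, chr9:86475077-86475136, minus strand: cctaatgacaacttgtgactaacggtttct
Pparg, chr6:115440213-115440272, plus strand: gcaggaaagtcccacccgctgacaacgtgt
Lepr transcript variant 2, tested probe, chr4:101452666-101452725, plus strand: aattccctcggcgcttcccttgtgaatttt
Lepr transcript variant 2, second probe, chr4:101464615-101464674, plus strand: ttgggacgatgttccaaaccccaagaattg
Lepr transcript variant 3, chr4:101485725-101485784, plus strand: tgaaggaaatcacaaaggttctgtcggaca

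Promoters are shown for Mgll and Pparg, which were both lower in early tumors. They come from RefSeq on GRCm38.p6, a later build than the probe positions, and run 5′ to 3′ for 300 bases around a transcript start, most of them before it. Capitals mark CACGTG (the E-box) or CCAAT on either strand. The Mgll stretch is the first of its 2 starts and the Pparg stretch the third of 3. Neither CACGTG nor CCAAT was in the second Mgll stretch or the first Pparg stretch, and the second Pparg stretch held 1 CCAAT.
Mgll promoter, chr6:88724162-88724461, plus strand: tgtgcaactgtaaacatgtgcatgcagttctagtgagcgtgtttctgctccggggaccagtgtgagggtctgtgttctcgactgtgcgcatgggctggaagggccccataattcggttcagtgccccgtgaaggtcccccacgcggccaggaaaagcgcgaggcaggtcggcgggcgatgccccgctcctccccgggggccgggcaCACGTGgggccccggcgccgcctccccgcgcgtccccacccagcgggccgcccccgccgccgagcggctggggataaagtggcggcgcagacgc
Pparg promoter, chr6:115421816-115422115, plus strand: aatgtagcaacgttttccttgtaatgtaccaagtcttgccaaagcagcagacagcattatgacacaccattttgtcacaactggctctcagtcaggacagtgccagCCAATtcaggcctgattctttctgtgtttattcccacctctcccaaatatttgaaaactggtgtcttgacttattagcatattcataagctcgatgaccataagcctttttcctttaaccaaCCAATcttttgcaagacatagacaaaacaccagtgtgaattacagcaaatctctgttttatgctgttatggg
Promoters of 29 of the 40 members were matched in the RefSeq table used, 40 stretches in all. CACGTG was in 3 of them (7.5%) against 7.15% of 32851 promoters, and CCAAT in 16 (40%) against 37.4%. These letters were therefore about as common in the members as elsewhere.

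A single tumor stood apart for the fat cell genes. MSU_45, a late LFD-HFD tumor, had the highest value of all tumors for 20 of the 39 members (51.3%), while it was highest for 3.93% of all genes tested. Cfd (adipsin, a complement factor secreted by fat cells) was 3.42 in MSU_45, against 0.51 in the next tumor and -4.54 in the lowest. Adipoq was 0.65 there, against -1.32 in the next tumor with a value, and Plin1 was 0.22 against -2.17. Adrb3, the adrenergic receptor that starts lipolysis in fat cells, was 3.19 against 0.47. Retn (resistin) was 2.23 against 0.08, and Pck1, the enzyme that feeds glycerol synthesis in fat, was -1.57 against -3.82. The next tumor for Cfd, Plin1, Adrb3 and Retn was MSU_42, also late LFD-HFD, in which Adipoq was missing. The 20 genes included 4 of the 5 adipokine and carrier genes tested, 5 of 8 genes of uptake and droplets, 3 of 4 of lipolysis and 4 of 7 of glycerolipid synthesis, but 1 of 10 of fatty acid synthesis, which was Pcx, pyruvate carboxylase. MSU_45 shared its slide with the 3 early HFD-LFD tumors, which differ from it in diet and onset, and the part of the slide was not tested. The 5 adipocyte markers tested are all among those 20 genes, so their mean repeats the same values. With each marker centered on its median over the tumors, the mean was 3.89 in MSU_45 and -1.02, 0.24 and -0.66 in the early tumors of the same slide.

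**Figure D1:**
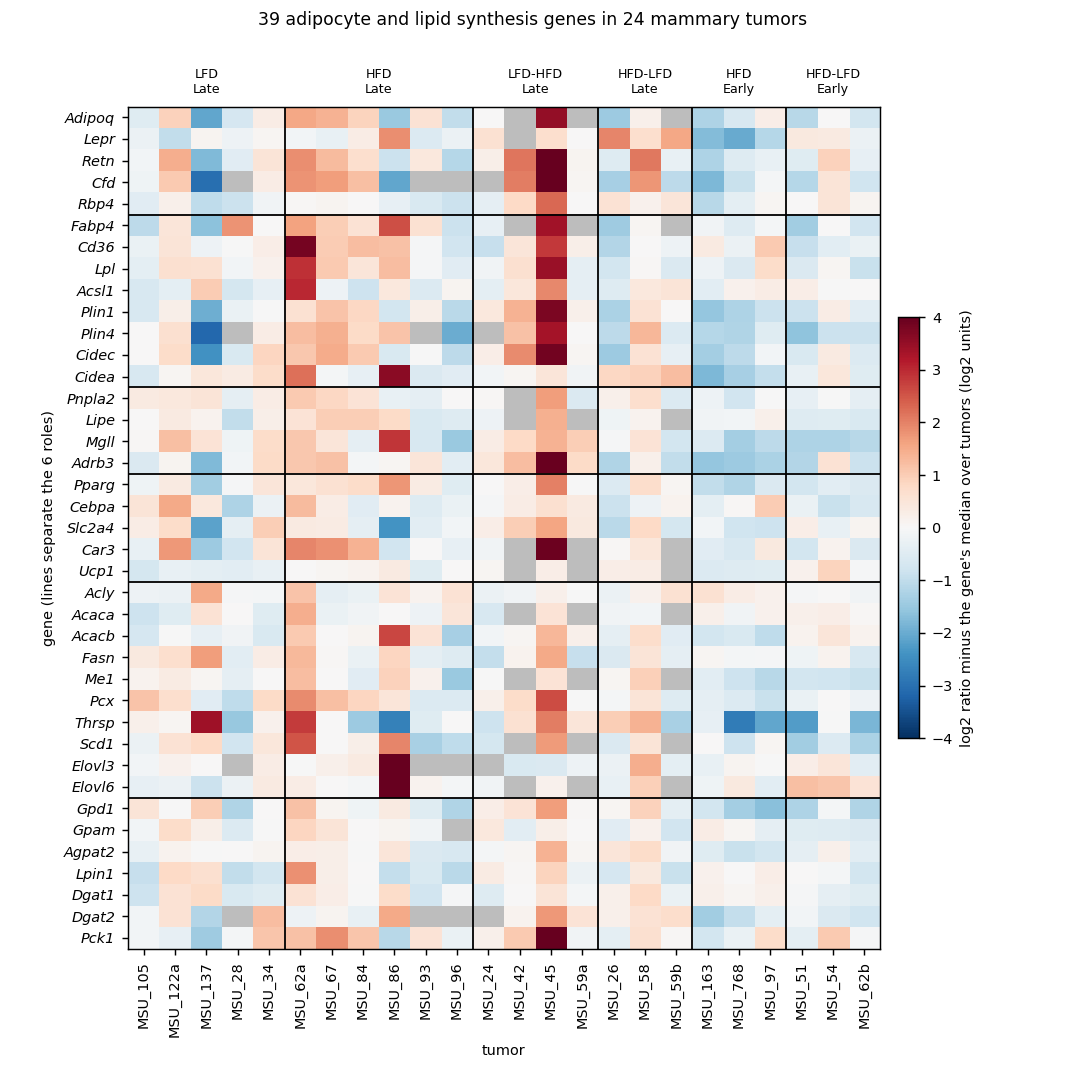
Heat map of the 39 tested members (rows, ordered by role) in the 24 tumors (columns, ordered by group), each gene centered on its median over the tumors, in log2 units, with missing values in grey. MSU_45 is high across the fat cell genes, MSU_137 low for most of them but high for Acly, Fasn and Thrsp, and MSU_86 high for Elovl3 (4.42) and Elovl6 (3.83).

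Further late tumors carried most of the other extremes, each with its own set of genes. MSU_62a (HFD) was highest for 7 members (17.9%, against 3.72% of all genes). These included Cd36, a fatty acid transporter, at 1.02 against 0.01 in the next tumor, Acsl1, which activates fatty acids, at 0.46 against -0.64, and Scd1, the desaturase that makes oleate, at 3.41 against 2.85. Acaca (acetyl-CoA carboxylase, the committed step of fatty acid synthesis) was 1.74 there, against 0.86 in the next tumor.

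No share of all genes was determined for lowest values. MSU_137 (LFD) was lowest of all tumors for 12 members, Adipoq at -4.95, Cfd at -4.54 and Plin1 at -5.50 among them. It was at the same time highest for Acly, which supplies cytosolic acetyl-CoA, at 1.75, for Fasn, the fatty acid synthase itself, at 1.65, and for Thrsp, a small inducer of lipogenesis, at 1.87. Other members did not follow this split: Elovl6, also a synthesis gene, was at its lowest there (-1.49), and Lpl, the lipoprotein lipase, was at -2.0, above its median of -2.60. Markers of milk-secreting epithelium were high in both MSU_62a and MSU_137. The centered mean of 9 such markers was 3.49 and 3.5, with values between -2.0 and 3.71 over all tumors, and it was also high in MSU_42 (3.71), MSU_26 (3.03), MSU_45 (2.87) and the early MSU_163 (2.60). Here and below, each such mean was over the markers with a value in that tumor. In MSU_42 Csn1s1, Glycam1 and Xdh were missing, and on slide 6 Csn1s2a, Csn2, Csn3 and Wap were. The part of milk-secreting cells in the synthesis genes was not tested.

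MSU_86 (HFD) was highest for 5 members, or 12.8%, close to the 11.7% of all genes for which it was highest. Elovl3, which elongates saturated and monounsaturated fatty acids in skin and brown fat, was 4.42 in that tumor and 1.24 in the next. Elovl6, which extends palmitate, was 3.83 and 0.58. The Elovl3 probe stood well above background in the tumor channel on only 13 of the 20 arrays where it was measured. Mgll, the monoglyceride lipase, was 2.80, Acacb, the mitochondrial acetyl-CoA carboxylase, was 0.40 and Cidea, a droplet protein of brown fat and sebaceous gland, was -0.66, each the highest value measured. Adipoq (-4.37), Cfd (-3.60) and Slc2a4 (the insulin-regulated glucose transporter, -3.88) were in contrast low, but the fat cell genes Fabp4 (0.04) and Pparg (-0.52) were the second highest of all tumors. The centered mean of 5 sebaceous gland markers was 2.80 in MSU_86, against at most 1.09 in the others. Awat1 (4.73) and Far2 (4.01) were at their highest there. The other markers, Krt79 (3.26), Scd3 (1.03) and Mc5r (0.17), were each higher in some other tumors, up to 4.17, 1.5 and 0.28. Its mean of 10 squamous markers was 5.41, the highest, and of 9 luminal markers -3.81, the lowest. The part of such cells in the values of Elovl3 and Elovl6 was not tested.

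**Figure D2:**
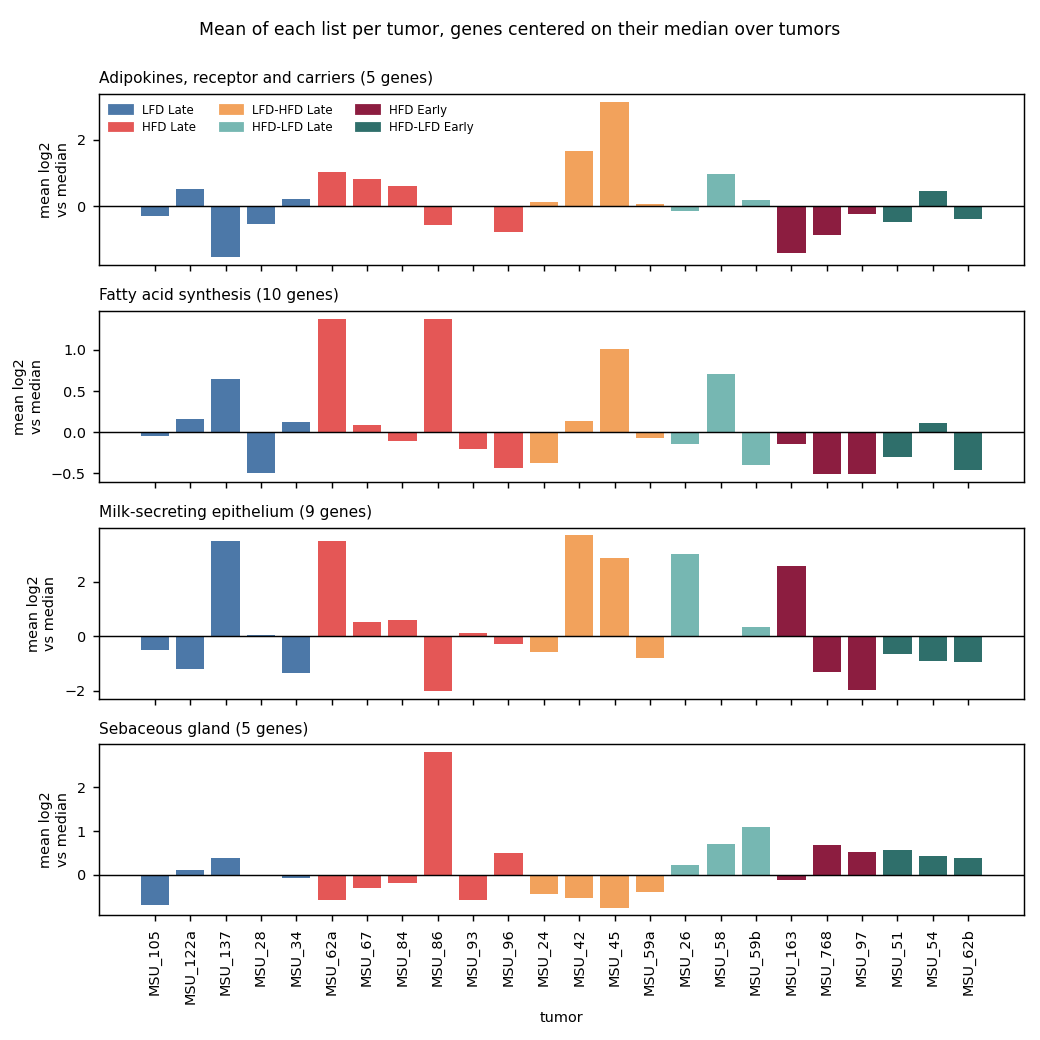
Mean of 4 gene lists in each of the 24 tumors, over the genes with a value there, each gene centered on its median over tumors, in log2 units, colored by group: 5 adipokine and carrier genes, 10 fatty acid synthesis genes, 9 markers of milk-secreting epithelium and 5 of sebaceous gland. The adipokine mean is highest in MSU_45 (3.15), the synthesis mean in MSU_86 (1.38) and MSU_62a (1.37), and the sebaceous gland mean in MSU_86 (2.80).

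The first comparison asked whether the 6 early tumors differed from the 18 late ones. Of the 39 members 5 were called, all lower in early tumors: Mgll, Gpd1, Me1, Dgat2 and Pparg. That is 12.8% of the members, against 17.9% of all genes called in either direction and 11.0% called lower, so the share was near the background. The estimate was below 0 for 36 of the 39 members with a median of -0.70, against a median of -0.06 over all genes. At an unadjusted p under 0.05, 13 members were lower and 0 higher, against 20.3% and 13.3% of all genes. When the ratios were centered on each array's median without loess, the all-gene median was 0.22, the members' median was -0.36 with 28 of 39 below 0, and only 1 member was called, Mgll. With that centering 82.5% of all called genes lay higher in the early group, against 38.6% under the main processing. The share was 45.2% with the scanner software's ratio, 39.1% without background subtraction and 55.8% with the tumor channel alone.

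The lipolysis genes were represented by Mgll, which cleaves the last fatty acid from glycerol. In early HFD tumors it was -0.61, -1.41 and -1.09, and in early HFD-LFD tumors -1.29, -1.27 and -1.16. Late tumors ran from -1.52 to 2.80 with a median of 0.46. All 6 early tumors lay below the late median, although the lowest late tumor, MSU_96, lay below them all. The difference was -1.51 (SE 0.39, adjusted p = 0.0107). By late group Mgll averaged 0.42 ± 0.55 (SD, n = 5) in LFD, 0.27 ± 1.53 (SD, n = 6) in HFD, 0.82 ± 0.44 (SD, n = 4) in LFD-HFD and -0.13 ± 0.65 (SD, n = 3) in HFD-LFD tumors. Of the other 2 Mgll probes that passed the filter, 1 gave -1.72 and 1 gave -1.07 (adjusted p over probes 0.00313 and 0.0604). Pnpla2 (-0.54), Lipe (-0.48) and Adrb3 (-1.24), the other genes of lipolysis, were not called.

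In glycerolipid synthesis, Gpd1 and Dgat2 were lower. Gpd1 makes glycerol 3-phosphate, the backbone of triglycerides. It was -3.99, -4.60 and -4.93 in early HFD and -4.47, -3.34 and -4.45 in early HFD-LFD tumors. Late tumors ran from -4.46 to -1.58 around a median of -3.15, and the difference was -1.23 (SE 0.32, adjusted p = 0.0112). Every early value was below the late median, and the lowest late tumors, MSU_28 and MSU_96, were at -4.44 and -4.46. The means of the same late tumors were, with SDs, -3.19 ± 0.80 in LFD, -3.28 ± 0.80 in HFD, -2.61 ± 0.72 in LFD-HFD and -3.05 ± 0.67 in HFD-LFD.

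Dgat2, which adds the final fatty acid to make triglyceride, was -3.64, -3.20 and -2.65 in early HFD and -2.36, -2.85 and -3.05 in early HFD-LFD tumors. It ran from -3.44 to -0.54 with a median of -1.89 in the 14 late tumors where it was measured. The late means were -2.13 ± 1.03 in LFD, -1.98 ± 0.84 in HFD, -1.45 ± 0.82 in LFD-HFD and -1.76 ± 0.28 in HFD-LFD tumors (SD, n = 4, 4, 3 and 3). The difference was -1.10 (SE 0.32, adjusted p = 0.0235), and the groups overlapped. Its value depended on the dimmed rows: with those spots kept, the difference was -0.12 (adjusted p = 0.938). Dgat1, Gpam, Agpat2, Lpin1 and Pck1 were not called, with differences from -0.56 to 0.05.

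Among the synthesis genes, Me1 (malic enzyme, a source of NADPH for fatty acid synthesis) was lower. It was 0.72, 0.32 and 0.05 in early HFD and 0.43, 0.34 and 0.27 in early HFD-LFD tumors. The 15 late tumors measured ran from -0.34 to 2.38 with a median of 1.24, and the difference was -0.94 (SE 0.27, adjusted p = 0.0195). MSU_96 was the single late tumor below all early ones. The late means were 1.18 ± 0.26 in LFD, 1.22 ± 0.98 in HFD, 1.42 ± 0.40 in LFD-HFD and 1.67 ± 0.62 in HFD-LFD (SD, n = 5, 6, 2 and 2). The other 2 Me1 probes gave -0.98 and -1.0 (adjusted p over probes 0.00788 and 0.00271).

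The core synthesis enzymes did not pass. Fasn differed by -0.29 (SE 0.32, adjusted p = 0.546), Acaca by 0.14 (SE 0.23, adjusted p = 0.713) and Acly by -0.02 (SE 0.22, adjusted p = 0.958). Scd1 differed by -0.94 (SE 0.46, adjusted p = 0.158) and Thrsp by -1.75 (SE 0.65, adjusted p = 0.0612), both with wide spread among late tumors. A second probe of Acly gave -0.32 (adjusted p over probes 0.0464).

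Of the transcription factors, Pparg, the master regulator of fat cell formation, was lower and Cebpa was not called (-0.29, adjusted p = 0.531). Pparg was -3.28, -3.51 and -2.87 in early HFD and -3.04, -2.71 and -2.87 in early HFD-LFD tumors. Late tumors ran from -3.68 in MSU_137 to -0.30 in MSU_45 with a median of -1.99. The difference was -1.04 (SE 0.31, adjusted p = 0.0258), with overlap between the groups. The late means were -2.45 ± 0.74 in LFD, -1.73 ± 0.73 in HFD, -1.73 ± 0.96 in LFD-HFD and -2.22 ± 0.62 in HFD-LFD (SD, n = 5, 6, 4 and 3).

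No adipokine gene and no gene of uptake or droplets was called, although all 13 estimates were below 0. Adipoq was -4.10, -3.50 and -2.62 in early HFD and -3.98, -2.85 and -3.60 in early HFD-LFD tumors, within the late range of -4.95 to 0.65 (difference -0.71, SE 0.58, adjusted p = 0.401). Cfd differed by -1.21 (SE 0.81, adjusted p = 0.301), Fabp4 by -0.93 (SE 0.58, adjusted p = 0.265) and Plin1 by -0.97 (SE 0.51, adjusted p = 0.179). Late tumors spread more than early ones for all 4, with SDs of 1.24 to 2.02 against 0.53 to 0.81.

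**Figure D3:**
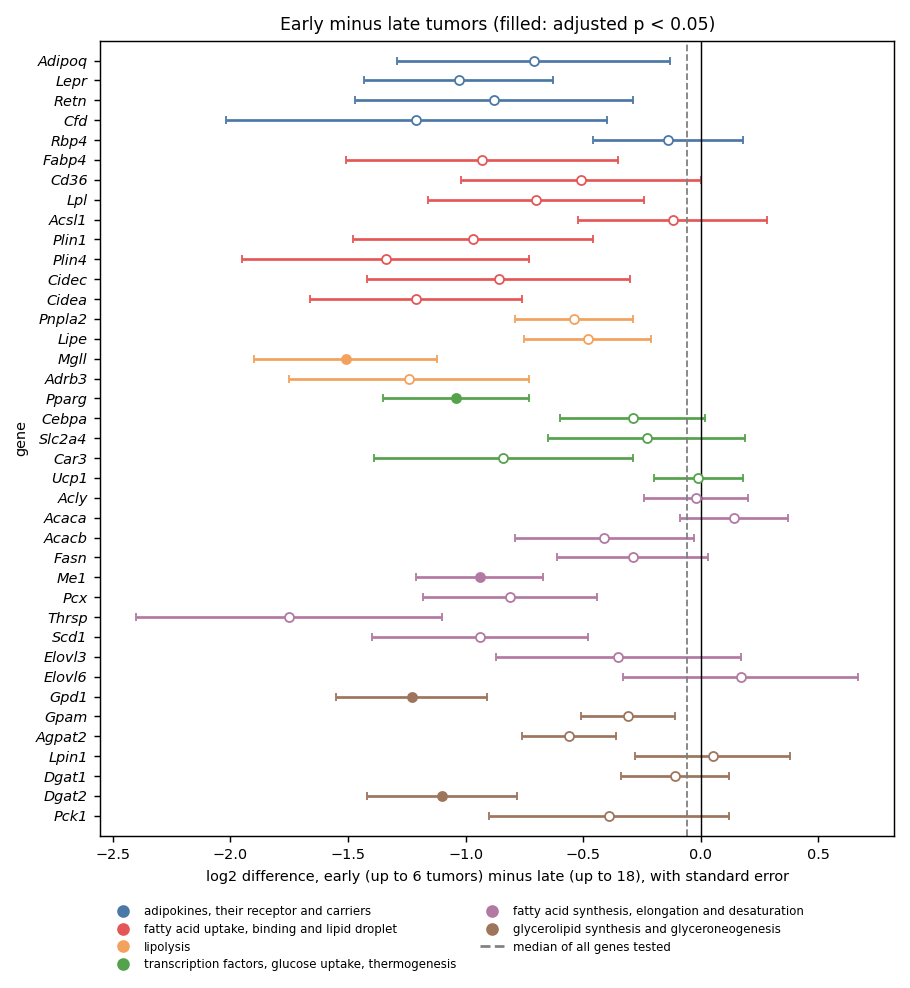
Difference between early and late tumors for the 39 tested members, in log2 units with standard errors, by role, with up to 6 early and up to 18 late values for each. The 5 called members lie between -0.94 (Me1) and -1.51 (Mgll), and 36 of 39 estimates lie below 0.

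Some markers of other cell types also differed between early and late tumors. The centered mean of the luminal epithelium markers was -2.84 to -0.20 in early tumors (median -2.51) and -3.81 to 1.34 in late ones (median 0.65), and 6 of its 9 genes were called lower. The medians of the squamous mean were 2.01 and -0.75, and none of its 10 genes was called. For the adipocyte mean, which shares its genes with the members, the medians were -0.76 and 0.21. Gata3, a luminal transcription factor, fell by 2.15 on the log2 scale (adjusted p = 0.000379). Of 7 fibroblast markers, Dcn alone was called, with a difference of -2.53 (adjusted p = 0.00312), and the median over the 7 was -0.38. The part of these cell types in the 5 calls was not tested.

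The first and second scan sessions held both groups, and the third late tumors only. Within the first session the 5 differences were -1.07 to -1.81 and Gpd1 alone was called (adjusted p = 0.0194). Within the second they were -1.28 to -1.82 and Me1 (adjusted p = 0.0179) and Mgll (adjusted p = 0.0253) were called. The late tumors of the second session were MSU_26, MSU_58 and MSU_45. Of all tumors, MSU_45 had the highest values of Gpd1, Dgat2 and Pparg. With session as a term the 5 differences were -1.18 to -1.81 and all 5 were called, with 13 members in all. Without the early HFD tumor MSU_163, or without MSU_768, 3 members were called, and Dgat2 (adjusted p = 0.0633 and 0.0611) and Pparg (0.0555 and 0.076) were not among them. Without MSU_97 Me1 was not called (adjusted p = 0.0501), and without the early HFD-LFD tumor MSU_54, 10 members were. For the fits within a session or without a single tumor, the share of all genes called is not given.

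**Figure D4:**
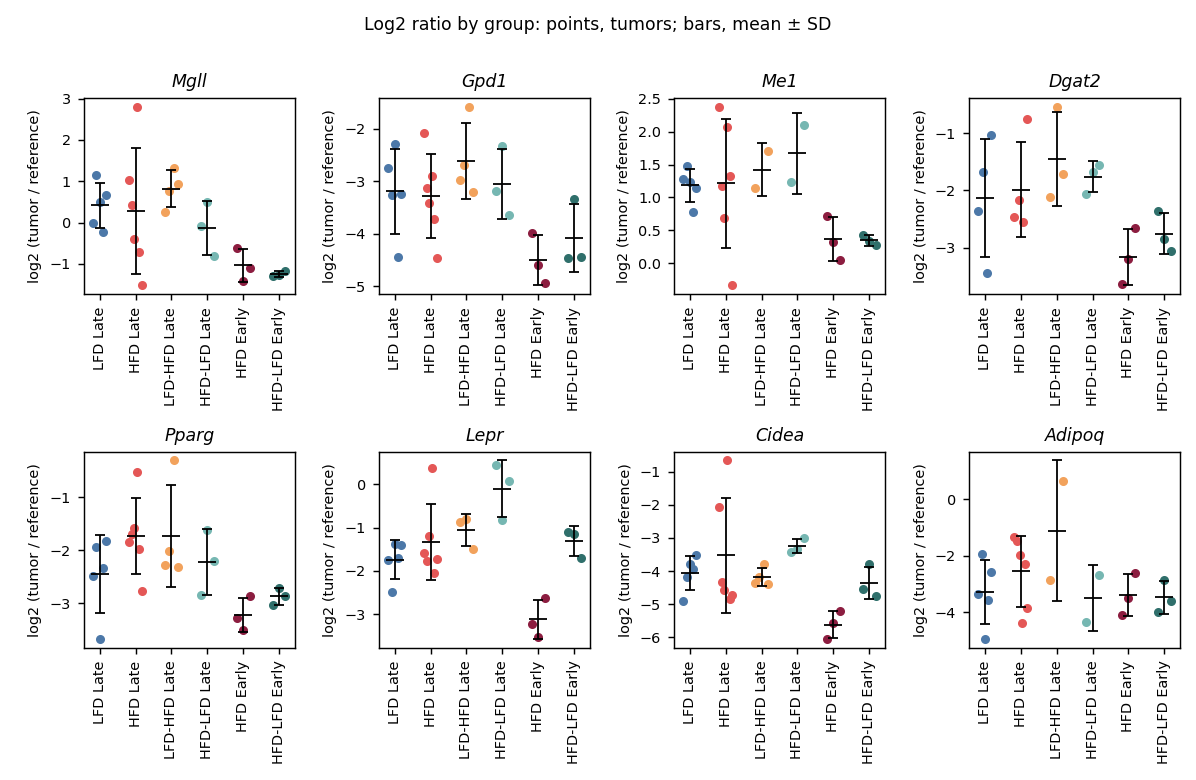
Log2 ratios of tumor to reference in each tumor by group, for the 7 members called in any comparison and Adipoq, with points for tumors and bars for the mean and SD of each group. Mgll is at or below -0.61 in all 6 early tumors, against a late median of 0.46.

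Early and late tumors could be compared within 2 diets. Within HFD (3 early, 6 late), Lepr, Cidea and Pparg were lower in early tumors, 3 of 39 members or 7.69%, against 13.3% of all genes in either direction and 7.46% lower. This too was near the background. Lepr, the leptin receptor, was -3.22, -3.52 and -2.63 in early tumors and ran from -2.04 to 0.37 in late tumors with a median of -1.66, so the groups did not overlap. The difference was -1.79 (SE 0.41, adjusted p = 0.00958). The second probe for the same transcript variant gave -0.54 and the probe for variant 3 gave -0.70 (adjusted p over probes 0.148 and 0.136), so the size of the Lepr difference rested on the tested probe. In the late tumors of the other diets Lepr averaged -1.74 ± 0.45 (SD, n = 5) in LFD and -1.06 ± 0.37 (SD, n = 3) in LFD-HFD.

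Cidea was -6.05, -5.58 and -5.21 in early tumors and from -4.84 to -0.66 in late ones. The difference was -2.08 (SE 0.66, adjusted p = 0.0404), and without MSU_86, the highest tumor, -1.51 (adjusted p = 0.0408). Elsewhere Cidea averaged -4.06 ± 0.52 in late LFD, -4.17 ± 0.28 in late LFD-HFD, -3.26 ± 0.22 in late HFD-LFD and -4.36 ± 0.50 in early HFD-LFD tumors (SD, n = 5, 4, 3 and 3). Pparg was below -2.77, the lowest late HFD value, in all 3 early tumors, and differed by -1.49 (SE 0.46, adjusted p = 0.0379). Without MSU_86 it differed by -1.25 (adjusted p = 0.0682). The 3 early HFD tumors made up a slide of their own, so slide and onset cannot be told apart within HFD. With slide as a random block, Lepr alone was called. Without MSU_768, 0 members were called (Lepr -1.59, adjusted p = 0.0593), without MSU_163 or MSU_97 Lepr alone was called, and without the late MSU_96, 8 were. The share of all genes called is not given for these fits either. Cidea was also lost without the late MSU_62a (adjusted p = 0.0674), and Pparg without MSU_67 or MSU_84 (0.0592 and 0.0617).

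Within HFD-LFD (3 early, 3 late), 0 of 39 members were called by limma, against 0.906% of all genes, and 2 were lower at an unadjusted p under 0.05, against 8.76% of all genes. The early tumors lay on slide 4 and the late ones on slides 5 and 7, so no slide held both. Lepr was -1.09, -1.14 and -1.71 in the early tumors and 0.45, -0.83 and 0.07 in the late ones, which did not overlap (difference -1.21, SE 0.48, adjusted p = 0.221). Me1 differed by -1.33 (SE 0.54, adjusted p = 0.237) with 2 late values measured. The difference between the onset changes of the 2 diets was itself tested. It was called for 0 of 39 members and for 0% of all genes, with 0 members at an unadjusted p under 0.05, against 8.15% of all genes. It was -0.58 (SE 0.63) for Lepr, -0.98 (SE 1.0) for Cidea and -0.85 (SE 0.71) for Pparg, so neither a difference nor its absence was shown with 3 early tumors in each diet.

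Lep, which encodes leptin, was too dim for a ratio: its signal passed in both channels on 41.7% of arrays. In the tumor channel its log2 intensity ran from 6.17 to 9.10, and MSU_45 had the highest value. At least 1 of its spots was well above background in 4 of 5 late LFD, 5 of 6 late HFD, 4 of 4 late LFD-HFD, 2 of 3 late HFD-LFD, 3 of 3 early HFD and 0 of 3 early HFD-LFD tumors. In MSU_105, MSU_137 and MSU_58 that was 1 spot of 10. The reference channel was also well above background at 7 of 9 spots in MSU_24 and 5 of 7 in MSU_42. It was so at 4 of 7 in MSU_59a and 5 of 7 in MSU_59b. Those arrays lay on slides 6 and 7, and no other array had more than 3 such reference spots. These intensities were not tested, and slide and diet group are partly tied for them.

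The other comparisons concerned diet, and slide and diet group were partly tied in them. Of the LFD tumors 4 lay on slide 1, and of the late HFD tumors 4 lay on slide 3. Between continuous HFD and continuous LFD, over 9 and 5 tumors, 0 of 39 members and 0% of all genes were called by limma. At an unadjusted p under 0.05 there were 0 members, against 4.91% of all genes. The HFD tumors were 3 early and 6 late ones and the LFD tumors all late, so diet and onset were partly mixed here. The estimate was above 0 for 26 members with a median of 0.22, and without MSU_137 for 18 with a median of -0.02, so the direction turned on that tumor. The diet eaten in adulthood was compared in late tumors, 10 from mice on HFD as adults (HFD and LFD-HFD) and 8 on LFD (LFD and HFD-LFD), as a contrast of the group means. Here too 0 members and 0% of all genes were called. At an unadjusted p under 0.05, 8 members were higher and 0 lower, against 3.28% and 2.80% of all genes, and 31 of 39 estimates were above 0 with a median of 0.40.

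The 8 were Adrb3, Plin1, Cidec, Fabp4, Adipoq, Cfd, Lpl and Cd36. Adrb3 averaged -1.08 ± 0.94 (SD, n = 5) in LFD, -0.38 ± 0.64 (SD, n = 6) in HFD, 0.84 ± 1.60 (SD, n = 4) in LFD-HFD and -1.42 ± 0.75 (SD, n = 3) in HFD-LFD tumors, and the contrast was 1.48 (SE 0.44, limma adjusted p = 0.688). Plin1 averaged -4.07 ± 0.86, -3.39 ± 0.88, -2.10 ± 1.63 and -3.79 ± 0.95 in the same order, with a contrast of 1.18 (SE 0.45, adjusted p = 0.798). The highest value of Adrb3 and of Plin1 was that of MSU_45. Without that tumor 2 members passed unadjusted, Adrb3 at 1.08 (SE 0.35, adjusted p = 0.95) and Plin1 at 0.80 (SE 0.37, adjusted p = 0.95), against 4.77% of all genes in that fit, and 26 estimates were above 0 with a median of 0.26.

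For Adipoq the means were -3.28 ± 1.13 (SD, n = 5) in LFD, -2.55 ± 1.27 (SD, n = 6) in HFD, -1.11 ± 2.49 (SD, n = 2) in LFD-HFD and -3.50 ± 1.18 (SD, n = 2) in HFD-LFD late tumors. Fabp4 averaged -2.61 ± 1.35, -1.61 ± 1.15, -1.03 ± 2.61 and -3.21 ± 1.05 over the same tumors. For Cfd the means were -2.0 ± 1.77 (SD, n = 4), -0.89 ± 1.83 (SD, n = 4), 0.83 ± 2.45 (SD, n = 3) and -1.75 ± 1.70 (SD, n = 3). LFD-HFD tumors averaged highest and HFD tumors next for each of these genes, while LFD and HFD-LFD tumors changed places for Cfd. Neighbors in that order differed by less than the larger of their SDs. For Adipoq and Fabp4 the place of LFD-HFD rested on MSU_45. The only other LFD-HFD value, that of MSU_24, was -2.87 for both genes, below the HFD means. For Cfd the LFD-HFD values besides MSU_45 were 0.51 in MSU_42 and -1.46 in MSU_59a, above and below the HFD mean. Both lay above the LFD and HFD-LFD means. In early HFD and HFD-LFD tumors Plin1 averaged -4.77 ± 0.35 and -3.89 ± 0.57, Fabp4 -2.78 ± 0.24 and -3.24 ± 0.70, and Cfd -2.45 ± 0.85 and -2.01 ± 0.88 (SD, n = 3).

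Fasn and Acaca did not follow that order. Fasn averaged 0.49 ± 0.77 (SD, n = 5) in LFD, 0.14 ± 0.73 (SD, n = 6) in HFD, -0.08 ± 1.16 (SD, n = 4) in LFD-HFD and -0.17 ± 0.57 (SD, n = 3) in HFD-LFD late tumors. Scd1 averaged 1.06 ± 0.65, 1.29 ± 1.55, 1.39 ± 1.68 and 0.85 ± 0.78, and Acaca 0.06 ± 0.55, 0.51 ± 0.66, 0.25 ± 0.86 and 0.17 ± 0.03, with 2 values measured in each of the last 2 groups. In early HFD and HFD-LFD tumors Fasn averaged -0.04 ± 0.09 and -0.27 ± 0.39, Scd1 0.64 ± 0.51 and -0.18 ± 0.46, and Acaca 0.37 ± 0.19 and 0.46 ± 0.10 (SD, n = 3).

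**Figure D5:**
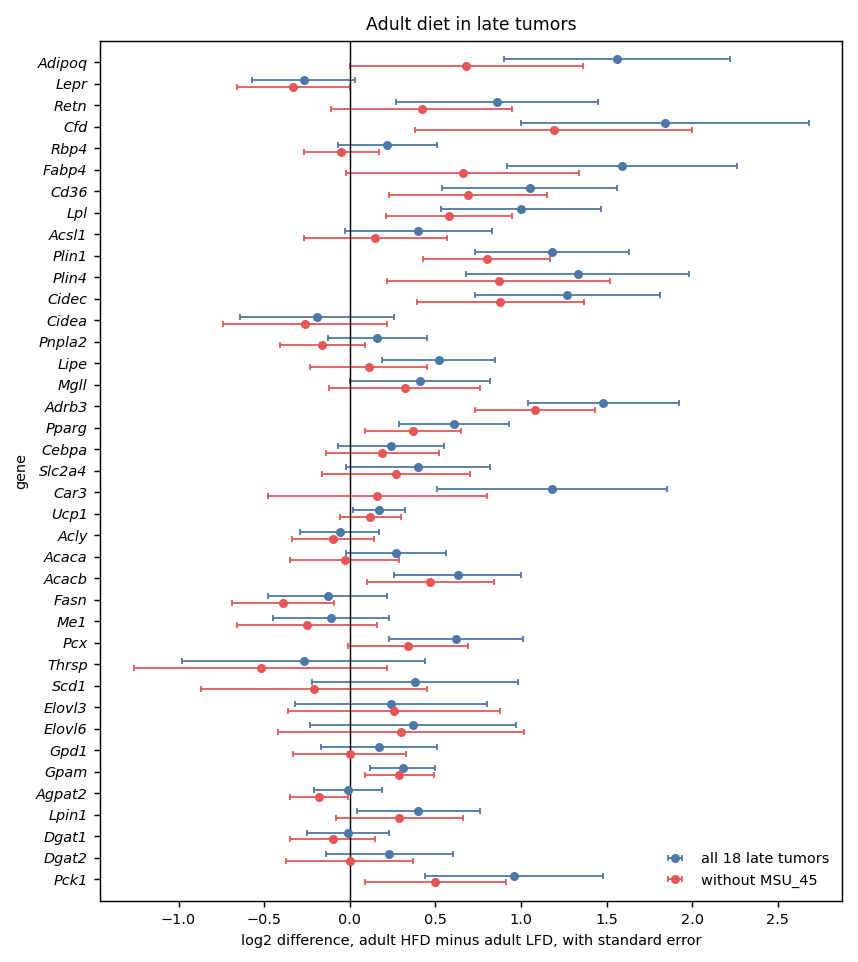
Contrast of adult HFD minus adult LFD in late tumors for the 39 tested members, in log2 units with standard errors, over all 18 late tumors and without MSU_45. Adrb3 moves from 1.48 to 1.08 and Plin1 from 1.18 to 0.80 when that tumor is left out.

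The diet eaten around puberty was compared in the same late tumors, 9 on HFD and 9 on LFD. Of the 39 members 0 were called, against 0% of all genes, and 1 had an unadjusted p under 0.05 against 9.37% of all genes, Lepr at 0.68 (SE 0.30, adjusted p = 0.502). With all tumors 12 estimates were above 0, and without MSU_45 27 were, so the direction of the list turned on that tumor.

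Other genes of lipid metabolism were counted between early and late tumors from lists written by hand. Of 10 regulators of lipid synthesis, 1 was higher and 3 were lower. Srebf2, the factor that drives cholesterol synthesis genes, rose by 0.61 (adjusted p = 0.0162), and Srebf1, which drives fatty acid synthesis genes, fell by 0.56 (adjusted p = 0.0124). Of 18 further enzymes of synthesis, elongation and desaturation, 2 rose and 1 fell. The risers were the desaturases of polyunsaturated fatty acids, Fads2 by 1.55 (SE 0.42, adjusted p = 0.0151) and Fads1 by 1.42 (SE 0.48, adjusted p = 0.0398), while Fads3 fell by 0.81 (adjusted p = 0.0232). Of 10 other glycerolipid enzymes 1 fell. Of 19 other lipid droplet and adipocyte genes 5 fell and 0 rose, among them Adipor2, an adiponectin receptor, by 0.70 (SE 0.11, adjusted p = 0.000761), Plin3 by 0.81 and Zfp423 by 1.23. Of 15 fatty acid oxidation genes 3 fell, Acadvl, Decr1 and Cpt2, by 0.66, 1.07 and 0.69. Of 9 other brown fat genes 0 were called by limma, and 1 had an unadjusted p under 0.05. With median centring the named genes kept their signs, and the differences below 0 were smaller in size (Adipor2 -0.17, Srebf1 -0.29). The shares stand beside 6.91% of all genes called higher and 11.0% called lower.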

How the data were processed

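Tumor and reference RNA were hybridized to 24 Agilent 4 x 44K 2-color arrays. Per the file headers the scanner files came from Agilent Feature Extraction 11.0.1.1, and per the labels from 8.5.1.1. The deposited intensity values are each spot's mean brightness and local background, not normalized between dyes. The log10 values, as deposited, are the scanner software's ratios and served as an alternative.

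The tools were R 4.3.3 and limma 3.58.1. A normexp background correction (offset 50) preceded loess within each array. Rows of spots over 0.5 log2 units dimmer on slides 6 and 7 were set missing. A probe needed a signal above 10 in tumor and reference alike on 80% of arrays or more, and each gene was taken from its brightest probe on average. Missing values were left missing. Early and late tumors were compared over 24 arrays, and the other contrasts were taken from 6 group means, except HFD against LFD, over the 14 tumors of those diets. Alternatives covered other scalings, filters, imputation, array weights, slide or scan session as a block, and each tumor left out. The steps were tested on simulated data. The number of arrays limits the precision, and p-values measure the spread between tumors, each taken as a separate sample.

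The members and lists were chosen with earlier results of these data known. Values by group are given for members called in any comparison and for Adipoq, Lep, Plin1, Fabp4, Cfd, Fasn, Scd1 and Acaca, other members by counts, ranges or a clause.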

Additional observations from a re-analysis of the deposited data

Results flagged for a closer look

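In each group of 4 or more tumors the highest and lowest value of each member was compared with its nearest neighbor, and a value was marked where that gap filled more of the range than Dixon's 95% limit allows. Of 141 groups examined, 17 (12.1%) were marked, and chance marks about 1 in 20. MSU_86 held 5 of them among late HFD tumors: Elovl3 at 4.42, Elovl6 at 3.83 and Lepr at 0.37 as the highest, Cfd at -3.60 and Slc2a4 at -3.88 as the lowest. MSU_137 held 3 among late LFD tumors, with Acly at 1.75 and Acsl1 at -1.56 as the highest and Plin4 at -4.92 as the lowest. In the same group MSU_28 was lowest for Pnpla2 (-1.98) and Lipe (-2.52), and MSU_105 for Ucp1 (-6.26). MSU_45 was highest of the late LFD-HFD tumors for Pparg (-0.30) and Agpat2 (0.18). Among late HFD tumors MSU_62a was highest for Acsl1 (0.46) and MSU_96 lowest for Plin4 (-3.74). Among the 6 early tumors MSU_54 was highest for Adrb3 (-0.18) and MSU_62b lowest for Lpin1 (-3.38).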

How the results depend on the processing

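Among the members called between early and late tumors or within HFD, no difference changed sign in any setting run. Members not called could: the difference of Acly between early and late tumors was -0.02, and 0.06 without MSU_137. The share of all genes called under the same setting follows each count in parentheses, except for counts with a tumor left out. Those counts have no background share beside them. Between early and late tumors the count of members called was 5 of 39 (17.9%). It was 1 with median centring (25.6%), 3 with the tumor channel alone (12.6%), 14 with array weights (31.7%), 8 with slide as a fixed block (0.353%), which compares only early HFD-LFD tumors with MSU_45, 13 with scan session as a fixed block (26.5%), 10 without the 7 arrays of slides 6 and 7 (19%), and 9 with a contrast of 6 group means (26.7%). Leaving out each tumor in turn gave 3 to 10. Within HFD the count was 3 (13.3%), and it was 1 with median centring (16.4%), 0 with the tumor channel alone (6.58%), 19 with array weights (39.8%), 1 with slide as a random block (4.6%), 12 with session as a block (17.5%) and 13 without the 7 arrays (16.7%). Leaving out each tumor gave 0 to 8. Slide could not be fitted as a fixed block there. Within HFD-LFD 2 were called with array weights (10.5%) and 1 with session as a block (2.67%). For adult diet 1 (Lipe) was called with session as a block (0.00477%) and 2 (Fabp4 and Lipe) without the 7 arrays (0.157%). The other comparisons kept 0 calls in every setting run. The cause of these changes was not tested. Mgll was called without any single tumor (24 of 24) and in 14 of 16 other settings. No paired analysis was possible because replicate numbers were given in accession order only.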
